A study of Homo sapiens with 4 samples.

Results

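The annexins and the S100 proteins are the 2 families of calcium-binding genes described here, as measured in the human pancreatic cancer line Panc1. Members were chosen by name, as the probe sets annotated to a single gene named ANXA plus a number, or S100A, S100B, S100P, S100G or S100Z with any number that follows, with pseudogenes left out. The families themselves were chosen on earlier results of these same 4 arrays, so their folds are a description and no test. The rule found 45 probe sets of 30 genes (11 annexins and 19 S100 genes) among 54675 probe sets and 19775 genes. RNA from 4 samples was hybridised to 4 Affymetrix arrays, 1 for each condition. They were cells given romidepsin plus tamoxifen (called the combination), romidepsin alone, tamoxifen alone, and no drug, with treatment for 24 hours. Romidepsin inhibits histone deacetylases, tamoxifen binds the estrogen receptor and blocks or activates it depending on the tissue, and no doses are stated in the labels. All samples are the same cell line, so the results describe 1 tumour's cells in culture. Each condition has a single array, so groups could not be tested against each other, no p-value is given, and every fold describes these arrays only.

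Annexins bind phospholipid membranes when calcium rises, and help in vesicle traffic, membrane repair and the anchoring of proteins at the cell surface. S100 proteins are small and carry a pair of EF hands, the helix-loop-helix unit that holds calcium in most of them. Several of them bind annexins, the best known pairs being S100A10 with annexin A2 and S100A11 with annexin A1. Most S100A genes lie together on the long arm of chromosome 1. Several S100 genes, S100A4 and S100P among them, are known as markers of invasive or pancreatic cancer.

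Values are MAS5 signals on a linear scale, 1 per probe set, and where a gene has several probe sets the one brightest on average (log2) is used. Signals under a floor of 66.4, the median of all non-control signals, have no order. A comparison includes a gene when either of its arrays exceeds the floor, and the words rose and fell are kept for differences of 2-fold or more. The RNA is of whole cultures, in which fewer cells of a type and less RNA per cell cannot be told apart. Signals of different genes come from different probes and are not set against each other. Of the 30 genes, 16 lay above the floor on all 4 arrays, 3 (S100A9, S100P and S100Z) on 1 to 3 arrays and 11 on none. The 11 were ANXA3, ANXA10, ANXA13, S100A1, S100A5, S100A7, S100A8, S100A12, S100A14, S100B and S100G. A gene that lay above the floor on some arrays only could differ in 1 direction only against an array at the floor.

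The promoters of the members that moved and that have 1 annotated start are shown here, since the differences between conditions rest on these genes. The sequences are the 250 bases before the gene's start, from RefSeq's table of build GRCh38.p14, read 5′ to 3′ on the gene's strand. Capitals mark matches, on either strand, to 4 motifs. The AP-1 motif was searched as TGANTCA. The motif of TEAD factors was searched as GGAATG. The GC box was searched as GGGCGG. The TATA box was searched as TATAAA. No match overlapped a match to another motif in these sequences. The first 4 fell in the combination and the last 2 rose with tamoxifen.
S100A10, chr1:151993860-151994109, minus strand: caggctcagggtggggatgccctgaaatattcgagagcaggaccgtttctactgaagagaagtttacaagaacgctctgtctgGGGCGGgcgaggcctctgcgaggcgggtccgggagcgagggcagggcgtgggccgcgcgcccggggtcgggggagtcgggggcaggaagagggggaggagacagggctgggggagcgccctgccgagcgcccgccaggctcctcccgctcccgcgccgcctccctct
S100A11, chr1:152037005-152037254, minus strand: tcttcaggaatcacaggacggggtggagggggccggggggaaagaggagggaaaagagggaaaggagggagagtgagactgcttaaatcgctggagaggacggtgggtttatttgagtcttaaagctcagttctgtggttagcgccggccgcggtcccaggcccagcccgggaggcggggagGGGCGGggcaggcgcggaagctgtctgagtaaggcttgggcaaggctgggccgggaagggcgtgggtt
S100A4, chr1:153545807-153546056, minus strand: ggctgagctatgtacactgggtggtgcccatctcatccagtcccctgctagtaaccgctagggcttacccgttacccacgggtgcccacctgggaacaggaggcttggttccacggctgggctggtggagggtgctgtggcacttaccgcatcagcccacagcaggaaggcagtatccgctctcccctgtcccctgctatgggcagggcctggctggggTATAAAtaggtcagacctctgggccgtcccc
S100A3, chr1:153549259-153549508, minus strand: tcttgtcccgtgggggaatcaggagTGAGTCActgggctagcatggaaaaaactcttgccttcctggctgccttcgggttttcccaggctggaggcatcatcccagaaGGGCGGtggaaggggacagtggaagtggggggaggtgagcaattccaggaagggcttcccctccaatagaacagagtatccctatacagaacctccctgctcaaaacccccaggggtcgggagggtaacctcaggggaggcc
ANXA1, chr9:73151615-73151864, plus strand: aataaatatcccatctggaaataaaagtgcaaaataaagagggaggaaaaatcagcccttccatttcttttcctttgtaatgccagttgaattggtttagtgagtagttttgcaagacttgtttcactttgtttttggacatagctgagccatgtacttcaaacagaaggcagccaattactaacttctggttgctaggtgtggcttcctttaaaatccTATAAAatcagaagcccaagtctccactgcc
S100P, chr4:6693628-6693877, plus strand: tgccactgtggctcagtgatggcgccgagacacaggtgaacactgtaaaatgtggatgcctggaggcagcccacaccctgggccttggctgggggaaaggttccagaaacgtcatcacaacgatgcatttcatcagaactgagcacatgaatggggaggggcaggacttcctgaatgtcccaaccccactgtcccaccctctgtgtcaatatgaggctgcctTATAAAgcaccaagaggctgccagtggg

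The table held 39 starts for 28 of the 30 genes. The AP-1 letters lay in 5 of the 39 (12.8%), against 6.57% of the 35116 starts of all genes. The TATA box lay in 14 (35.9%), against 10.7%, the GC box in 14 (35.9%), against 42.6%, and the TEAD letters in 2 (5.13%), against 11.9%. S100A3 held the AP-1 letters, whose first base lay 225 bases before the start, and S100A2, which also fell, held them 52 bases before 1 of its starts. ANXA1, S100P and S100A4 each held a TATA box, at 31, 28 and 31 bases before the start. Some genes have several starts, and a match of letters is a description of the window only.

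In the combination the 5 members furthest below untreated cells were S100 genes of chromosome 1. S100A10, S100A11, S100A4, S100A3 and S100A2 fell, and so did ANXA4, while 0 members rose. The call was lost for ANXA4 under scaling to spike-in controls (log2 fold -0.94). With a floor at the 75th percentile of signals, 408, the calls of S100A2 and S100A3 were lost. Their log2 folds of -0.94 and -0.63 there are bounds set by that floor. From their untreated signals no 2-fold fall could be called above it. These 6 were 33.3% of the 18 members measured, against 14.4% of all 13802 genes measured that fell and 19.8% that rose. With the floor at the 25th percentile 4 of 25 measured members rose, against 3950 of 17877 genes. The median log2 fold was -0.63 over the 18 members and 0.09 over all genes measured. It was -1.06 over 10 measured S100 genes and -0.37 over 8 annexins.

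S100A10, the subunit that holds annexin A2 in a tetramer at the plasma membrane and binds plasminogen there, had a signal of 4754 in the combination, 12693 with romidepsin and 19372 with tamoxifen, against 28739.5 in untreated cells. The combination array was the lowest and the untreated array the highest, with both single drugs between them. The fall was 6.05-fold in the combination and 2.26-fold with romidepsin, and the tamoxifen signal was 1.48-fold lower. A second probe set of S100A10 lay below the floor in the combination and with romidepsin (53.6) and read 312 with tamoxifen, against 249 in untreated cells. It fell at least 3.76-fold in the combination, in the same direction as the main probe set, but was not lower with tamoxifen.

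ANXA2, the partner of S100A10, was not called. It had a signal of 21313 in the combination, 29169 with romidepsin and 28390.2 with tamoxifen, against 33745 in untreated cells. That is 1.58-fold lower in the combination, 1.16-fold lower with romidepsin and 1.19-fold lower with tamoxifen, all short of 2-fold. The other bright ANXA2 probe sets read 1.60-fold and 1.54-fold lower in the combination. All 3 carry the manufacturer's mark for probes that may match other transcripts, and the gene has processed pseudogenes close to it in sequence. The probe set named for the pseudogene ANXA2P2, no member by the rule, read 4946 in the combination, 10193 with romidepsin and 13325 with tamoxifen, against 15692 in untreated cells, 3.17-fold lower in the combination. Which RNA each of these probe sets reads cannot be told apart here.

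S100A11, a partner of annexin A1 in membrane traffic and repair, had a signal of 7416 in the combination, 17585 with romidepsin and 20025 with tamoxifen, against 26708 in untreated cells. It fell 3.60-fold in the combination, while romidepsin and tamoxifen alone gave signals 1.52-fold and 1.33-fold lower. S100A4, which binds non-muscle myosin and is linked to cell motility, had a signal of 3855 in the combination, 7972 with romidepsin and 8975 with tamoxifen, against 10316 in untreated cells. It fell 2.68-fold in the combination, and the single drugs stood 1.29-fold and 1.15-fold below untreated cells. For both genes only the array with both drugs lay more than 2-fold below the untreated one.

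S100A3, known from the hair cuticle, had a signal of 116 in the combination, 245 with romidepsin and 377 with tamoxifen, against 632 in untreated cells. It fell 5.43-fold in the combination and 2.58-fold with romidepsin. S100A2, a nuclear S100 protein of epithelia and a p53 target, had a signal of 180.2 in the combination, 400.1 with romidepsin and 688 with tamoxifen, against 784 in untreated cells. It fell 4.35-fold in the combination and was 1.96-fold lower with romidepsin, just short of a call. The 5 S100 genes that fell share 1 order of arrays, lowest in the combination, then romidepsin, then tamoxifen, and highest in untreated cells. Scaled to spike-in controls, S100A2 and S100A4 were higher with tamoxifen than in untreated cells (log2 folds 0.17 and 0.15), so for them the order of those arrays depends on the scaling.

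**Figure D1:**
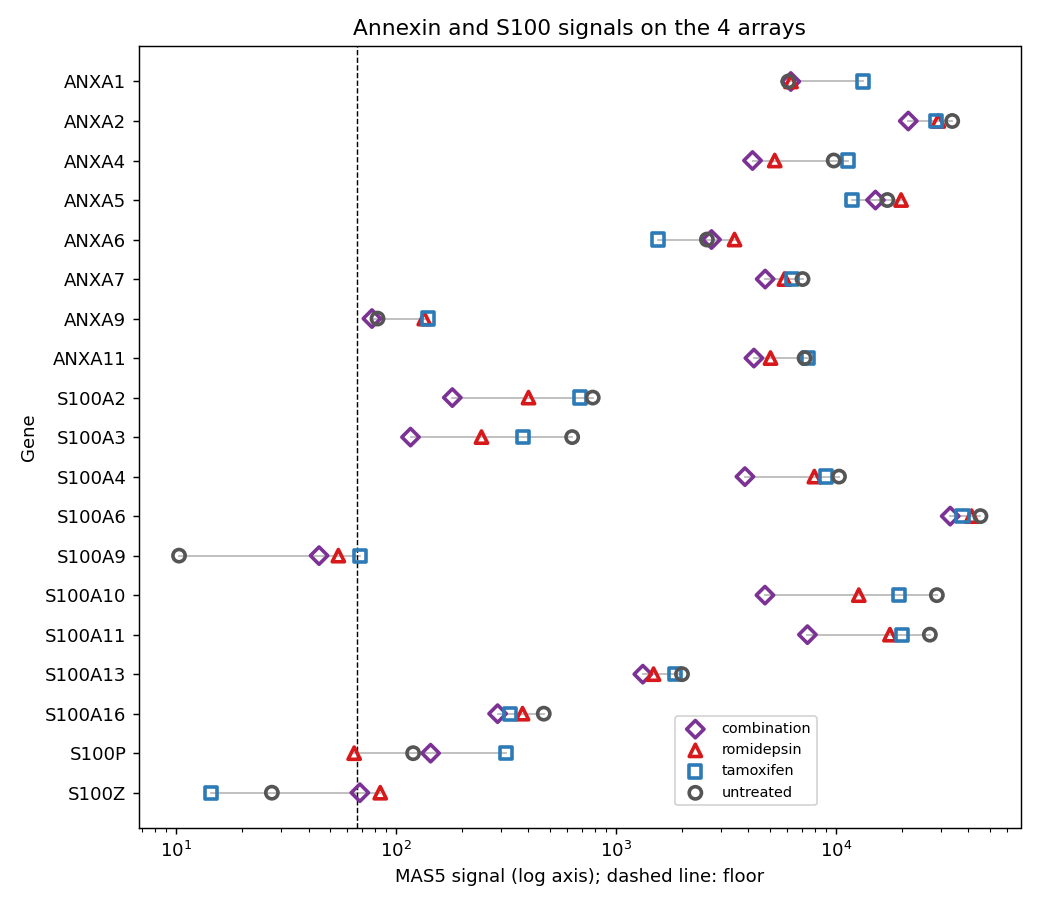
MAS5 signal (log axis) of the 19 members above the floor on at least 1 array, 1 row per gene and 1 open marker per array; the dashed line is the floor of 66.4. The combination marker is leftmost for S100A2, S100A3, S100A4, S100A10 and S100A11, and the tamoxifen marker is rightmost for ANXA1 and S100P; levels of different genes are not comparable.

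The other S100 genes of chromosome 1 that were measured on all arrays were lower in the combination by less than 2-fold. S100A6 (calcyclin), a partner of several annexins, had a signal of 33049.5 in the combination, 41327 with romidepsin and 37583 with tamoxifen, against 45347 in untreated cells, 1.37-fold lower in the combination. Its second probe set read 45.0 in the combination, 47.4 with romidepsin and 229 with tamoxifen, against 308 in untreated cells. That is at least 4.65-fold lower in the combination and with romidepsin, so the 2 probe sets of S100A6 differed in size.

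S100A16, an S100 protein found in many tissues, had a signal of 289 in the combination, 376 with romidepsin and 330.4 with tamoxifen, against 469 in untreated cells, 1.62-fold lower in the combination. S100A13, which takes part in the release of growth factors that lack a signal peptide, had a signal of 1324 in the combination, 1481 with romidepsin and 1861 with tamoxifen, against 1995 in untreated cells, 1.51-fold lower in the combination. In the deposited scale both genes had the combination array lowest and the untreated array highest, as the 5 that fell did.

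Of S100 genes on other chromosomes, S100P and S100Z were measured. S100P, a ligand of the receptor AGER that is often raised in pancreatic cancer, had a signal of 144 in the combination, 64.5 with romidepsin and 316 with tamoxifen, against 119.6 in untreated cells. It rose 2.65-fold with tamoxifen and lay below the floor with romidepsin, at least 1.80-fold under untreated cells. S100Z had a signal of 68.5 in the combination, 84.7 with romidepsin, 14.4 with tamoxifen and 27.3 in untreated cells, so it stood barely over the floor on 2 arrays. S100A9, a subunit of calprotectin of myeloid cells, had a signal of 44.7 in the combination, 54.7 with romidepsin and 68.3 with tamoxifen, against 10.3 in untreated cells, above the floor with tamoxifen only, and its partner S100A8 was below the floor on all 4 arrays.

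Among the annexins, ANXA1 and ANXA4 were called in at least 1 comparison and the other 6 measured ones were not. ANXA1, the anti-inflammatory annexin that acts through formyl peptide receptors, had a signal of 6229 in the combination, 6243 with romidepsin and 13309.6 with tamoxifen, against 6071 in untreated cells. Only the tamoxifen array stood apart, 2.19-fold higher than untreated cells, and the other 3 arrays lay close together. A second probe set, close to the floor, was 1.64-fold higher with tamoxifen. ANXA4, an annexin of epithelial apical membranes, had a signal of 4174 in the combination, 5264 with romidepsin and 11299 with tamoxifen, against 9764 in untreated cells. It fell 2.34-fold in the combination and was 1.85-fold lower with romidepsin, and its second probe set gave 2.04-fold and 1.74-fold.

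ANXA5, the annexin used to stain phosphatidylserine on dying cells, had a signal of 15116 in the combination, 19765 with romidepsin and 11801 with tamoxifen, against 17115 in untreated cells. ANXA6, which carries a doubled set of annexin repeats, had a signal of 2716 in the combination, 3457 with romidepsin and 1558 with tamoxifen, against 2589 in untreated cells. For both genes the tamoxifen array was the lowest and the romidepsin array the highest, while ANXA1 and ANXA4 were highest with tamoxifen, and no difference from untreated cells reached 2-fold. ANXA6 was 1.66-fold lower with tamoxifen and ANXA5 1.45-fold lower.

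ANXA7 (synexin), an annexin of membrane fusion, had a signal of 4765 in the combination, 5826 with romidepsin and 6302.5 with tamoxifen, against 7044 in untreated cells, 1.48-fold lower in the combination. ANXA11, which tethers RNA granules to lysosomes, had a signal of 4234 in the combination, 5037 with romidepsin and 7435 with tamoxifen, against 7197 in untreated cells, a log2 fold of -0.77 in the combination. Of its other probe sets 1 was 2.41-fold lower in the combination. The remaining one was 1.09-fold higher in the combination and 2.49-fold higher with tamoxifen. ANXA9 had a signal of 77.7 in the combination, 134 with romidepsin and 140.25 with tamoxifen, against 82.4 in untreated cells. These are low signals, and the second ANXA9 probe set was 1.36-fold lower with romidepsin where the first was 1.63-fold higher.

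Romidepsin alone was compared with no treatment. S100A10 and S100A3 fell and 0 members rose, so that 11.1% of 18 measured members fell, against 9.27% of all 13619 genes measured that fell and 14.3% that rose. That share is near the background in the deposited scale. It was also near it scaled to spike-in controls, where 2 of 18 fell, against 9.75% of all genes. With the floor at the 25th percentile 2 of 27 fell, against 10.7%, and 5 rose, against 3018 of 17715 genes. At the 75th percentile 1 of 15 fell, against 9.46%, and S100A3 lost its call (log2 fold -0.63, a bound set by that floor of 408). With arrays centred on their medians 5 of 19 measured members fell, against 12.7% of all genes, and after quantile normalization 4 of 19, against 10.3%. The median log2 fold was -0.35 over the members and 0.06 over all genes, and 9 of 10 measured S100 genes had a signal below that of untreated cells, S100Z being the exception. The 8 measured annexins were split, 4 higher and 4 lower, between a log2 fold of -0.89 for ANXA4 and 0.71 for ANXA9.

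Tamoxifen alone was compared with no treatment. ANXA1 and S100P rose and 0 members fell, with 11.1% of 18 measured members rising, against 3.7% of all 13051 genes measured that rose and 1.07% that fell. Scaled to spike-in controls the share was nearer to that of all genes, as 3 of 19 members rose, against 1526 of 13257 genes. The rise of ANXA1 missed 2-fold when arrays were centred on their medians (log2 fold 0.98) and when the median of its probe sets was taken (0.92). The median log2 fold was -0.19 over the members and 0.01 over all genes. The 5 S100 genes that fell in the combination had log2 folds between -0.75 (S100A3) and -0.19 (S100A2) with tamoxifen alone in the deposited scale. Scaled to spike-in controls, S100A2 and S100A4 turned to 0.17 and 0.15, S100A11 stood at -0.06, and the median of the members turned to 0.15, against 0.33 for all genes.

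**Figure D2:**
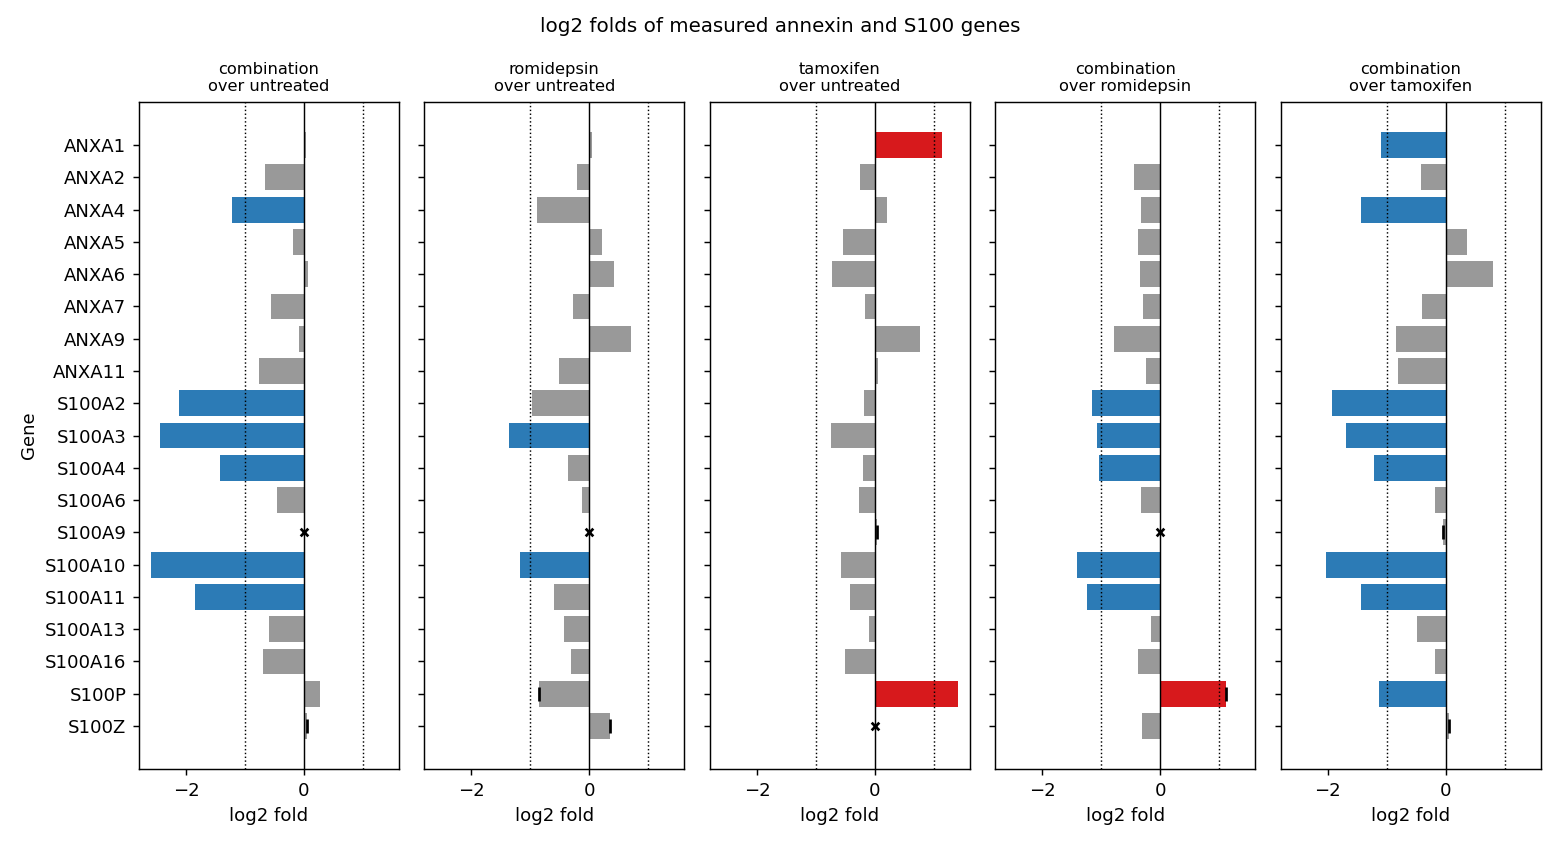
log2 fold of each measured member in 5 comparisons, with dotted lines at 2-fold; blue bars fell, red bars rose, grey bars did neither, a black tick marks a bound set by the floor and a cross a gene not measured. The blue bars of S100A2, S100A3, S100A4, S100A10 and S100A11 recur in all 3 panels with the combination on top, which share that array, and red bars stand in the tamoxifen panel for ANXA1 and S100P.

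What tamoxifen added to romidepsin was examined by setting the combination against romidepsin alone. The same 5 S100 genes fell, S100A10 by 2.67-fold, S100A11 by 2.37-fold, S100A2 by 2.22-fold, S100A3 by 2.10-fold and S100A4 by 2.07-fold. S100P rose at least 2.16-fold, a call lost with arrays centred on their medians (log2 fold 0.98) and after quantile normalization (0.96). Scaled to spike-in controls, S100A10 alone kept a 2-fold fall, and the other 4 had log2 folds between -0.94 and -0.74. The 5 falls were 27.8% of 18 measured members, against 2.27% of all 13726 genes measured that fell, and the 1 rise was 5.56%, against 4.07% of all genes that rose. In the deposited scale all 8 measured annexins were lower in the combination than with romidepsin, and 0 of them by 2-fold. ANXA1 turned to a log2 fold of 0.08 after quantile normalization and 0.30 scaled to spike-in controls, where ANXA4 stood at -0.03, and the other 6 were not recomputed. The smallest such difference was that of ANXA1, at 6229 and 6243, and the largest log2 fold was -0.79, for ANXA9. Of 7 second probe sets of members above the floor on all arrays 6 had the sign of the main one. That of ANXA9 did not (log2 fold 0.02). Dimmer probe sets of ANXA11 and ANXA6 were higher in the combination, by at least 0.255 and 0.45. The median log2 fold was -0.34 over the annexins and -0.03 over all genes.

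What romidepsin added to tamoxifen was examined by setting the combination against tamoxifen alone. Here 8 of 19 measured members fell (42.1%), against 11.8% of all 13893 genes measured that fell, and 0 rose, against 14.8% of all genes. The falls were S100A10 (4.08-fold), S100A2 (3.82-fold), S100A3 (3.24-fold), ANXA4 (2.71-fold), S100A11 (2.70-fold), S100A4 (2.33-fold), S100P (2.20-fold) and ANXA1 (2.14-fold). ANXA1 and S100P, the members that rose with tamoxifen alone, thus read 6229 and 144 when romidepsin was also given, against 13309.6 and 316 with tamoxifen alone. The call was lost for ANXA1 with the median of its probe sets (log2 fold -0.94) and for S100A2 with a floor at the 75th percentile. The S100A2 value there (-0.75) is a bound set by that floor of 408. With the floor at the 25th percentile 2 of 25 measured members rose, against 3079 of 18007 genes. ANXA6 was 1.74-fold higher in the combination than with tamoxifen. The 3 comparisons with the combination share that array, so their values are not independent of each other.

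The combination array was the lowest of the 4 for 13 of the 19 members measured, against 27.1% of all 14414 genes measured. Among members above the floor on all 4 arrays it was the lowest for 13 of 16, against 33.7% of 11058 genes. The exceptions were ANXA5 and ANXA6, lowest with tamoxifen, and ANXA1, lowest in untreated cells. These counts are of the deposited scale and 1 probe set per gene, and were not recomputed. The members' median in the combination over romidepsin was -0.36 in that scale and -0.06 scaled to spike-in controls, so the lowest array can depend on scaling. The second ANXA9 probe set read 90.9 in the combination and 89.9 with romidepsin. The log2 fold of the combination over untreated cells was then set beside the sum of the log2 folds of both drugs alone. S100A10 reached -2.60 against a sum of -1.75, S100A11 -1.85 against -1.02, S100A2 -2.12 against -1.16 and S100A4 -1.42 against -0.57. S100A3 lay nearer to the sum, at -2.44 against -2.12.

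In all, 7 of 19 measured members lay at least 0.5 below the sum on the log2 scale, against 13.2% of all 14414 genes. That far above it lay 0 members, against 1429 of the 14414 genes. The 7 were S100A2, S100A4, S100A10, S100A11, ANXA1, ANXA4 and ANXA9. The difference from the sum was -1.14 for ANXA1 and, at low signals, -1.56 for ANXA9, whose log2 folds in the combination over untreated cells were 0.04 and -0.08. The second ANXA9 probe set did not lie below the sum. Its log2 folds over untreated cells were -0.42 in the combination, -0.44 with romidepsin and -0.11 with tamoxifen. The counts against the sum are of the deposited scale and 1 probe set per gene, and were not recomputed. The margin of 0.5 was chosen with the data known. The sum uses the untreated array in both of its terms.

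**Figure D3:**
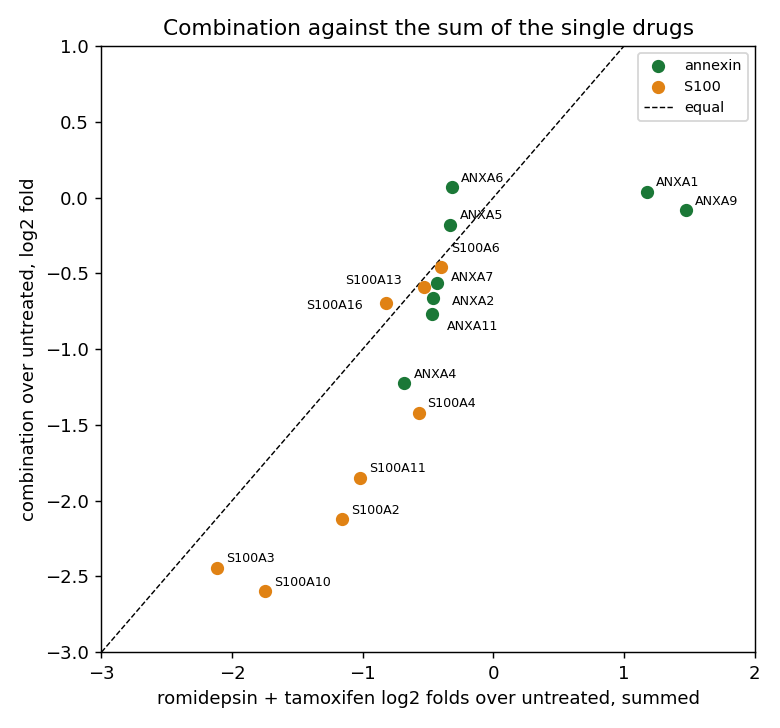
log2 fold of the combination over untreated cells (vertical axis) against the sum of the romidepsin and tamoxifen log2 folds (horizontal axis) for the 16 members above the floor on all 4 arrays; the dashed line marks equality. Differences from the line are largest for ANXA9 (-1.56, at low signals) and ANXA1 (-1.14), and that of ANXA4 is -0.55. S100A10, S100A11, S100A2 and S100A4 lie below the line by 0.83 to 0.96, and ANXA5, ANXA6 and S100A16 lie above it.

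The S100 genes on chromosome 1 are neighbours, and the genes around them were looked at in their order. S100A10 and S100A11 lie side by side at 1 end, the epidermal differentiation genes follow, and S100A9 to S100A1 form the other group. Within that group S100A4, S100A3 and S100A2 are adjacent and all fell in the combination, while S100A6 and S100A16 on either side were lower by less than 2-fold. S100A5, between S100A6 and S100A4, was below the floor on all 4 arrays, as was S100A14, between S100A16 and S100A13. Of 35 listed neighbours that are not S100 genes 18 were measured in the combination, where 2 were called lower and 0 higher. These are 11.1% and 0%, against the 14.4% of all genes that fell and 19.8% that rose. The median was -0.12 on the log2 scale, against 0.09 over all genes. The 2 called lower were the zinc transporter SLC39A1, 2.41-fold lower, and the transcription factor CREB3L4, 2.23-fold lower. Neighbours whose untreated signal lay below the floor or less than 2-fold above it could not be called lower than untreated cells. All measured neighbours between the 2 S100 groups were of this kind, the brightest being SPRR1A at 115 in untreated cells. The shares therefore cannot say whether these genes fell, and were not recomputed without them. With romidepsin or tamoxifen alone 0 of 16 measured neighbours rose or fell. Of all genes 14.3% rose and 9.27% fell with romidepsin, and 3.7% rose and 1.07% fell with tamoxifen.

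**Figure D4:**
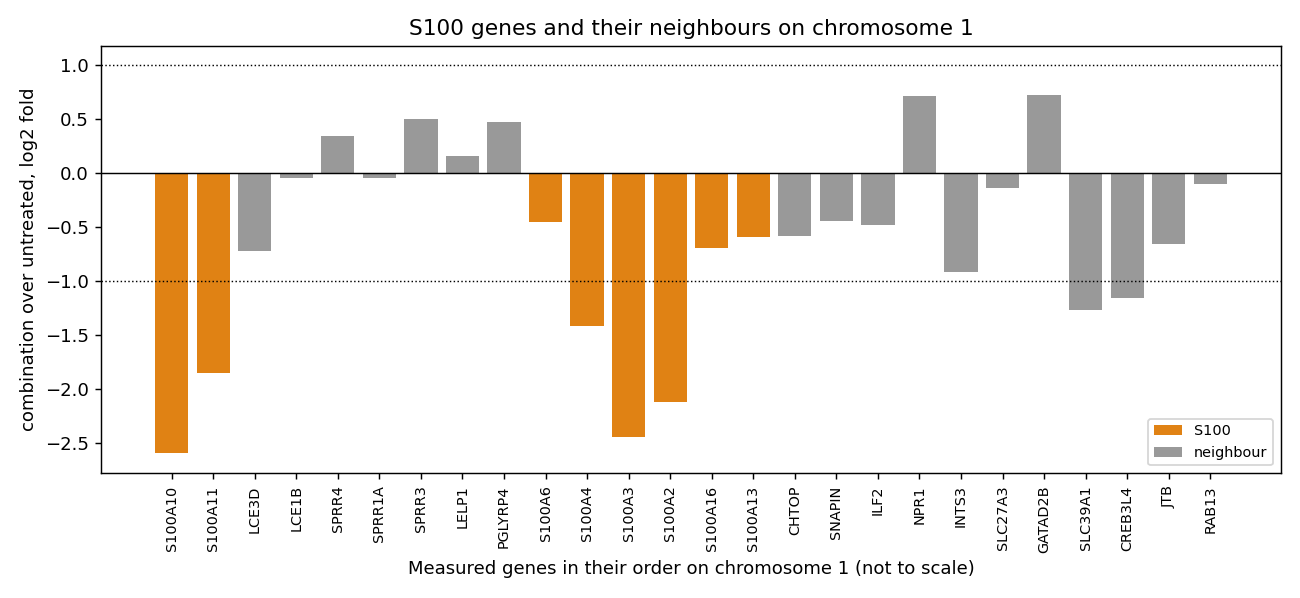
log2 fold of the combination over untreated cells for measured S100 genes (orange) and listed neighbours (grey), in their order on chromosome 1 and not to scale; dotted lines mark 2-fold. S100A10 and S100A11 stand at the left end, S100A4, S100A3 and S100A2 stand together near the middle, and the genes between the 2 groups lie between -0.72 and 0.50. Of those genes the neighbours (grey) were too near the floor in untreated cells to fall 2-fold.

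Genes that work with the annexins and S100 proteins were counted from lists chosen for this description. Of 25 listed genes of membrane repair and annexin binding, 20 were measured in the combination, where 11 were called lower and 3 higher. These are 55% and 15%, against 14.4% and 19.8% of all genes. Their log2 folds had a median of -1.49, against 0.09 over all genes. Myoferlin (MYOF), a ferlin that fuses membranes in the presence of calcium, had a signal of 380.0 in the combination, 662 with romidepsin and 11141 with tamoxifen, against 12350 in untreated cells, 32.5-fold lower in the combination. AHNAK, the giant scaffold that binds the S100A10 and annexin A2 complex, had a signal of 1313 in the combination, 1849 with romidepsin and 9019.9 with tamoxifen, against 10826 in untreated cells, 8.24-fold lower in the combination. The calpain CAPN1 was 8.44-fold lower in the combination and EHD2, a membrane-bending ATPase of caveolae, 5.92-fold lower. With romidepsin 9 of the 20 fell (45%) and 0 rose, against 9.27% and 14.3% of all genes, and with tamoxifen 1 fell (5%) and 0 rose, against 1.07% and 3.7%. Unlike S100A11 and S100A4, MYOF and AHNAK were already far lower with romidepsin alone, 18.7-fold and 5.86-fold.

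**Figure D5:**
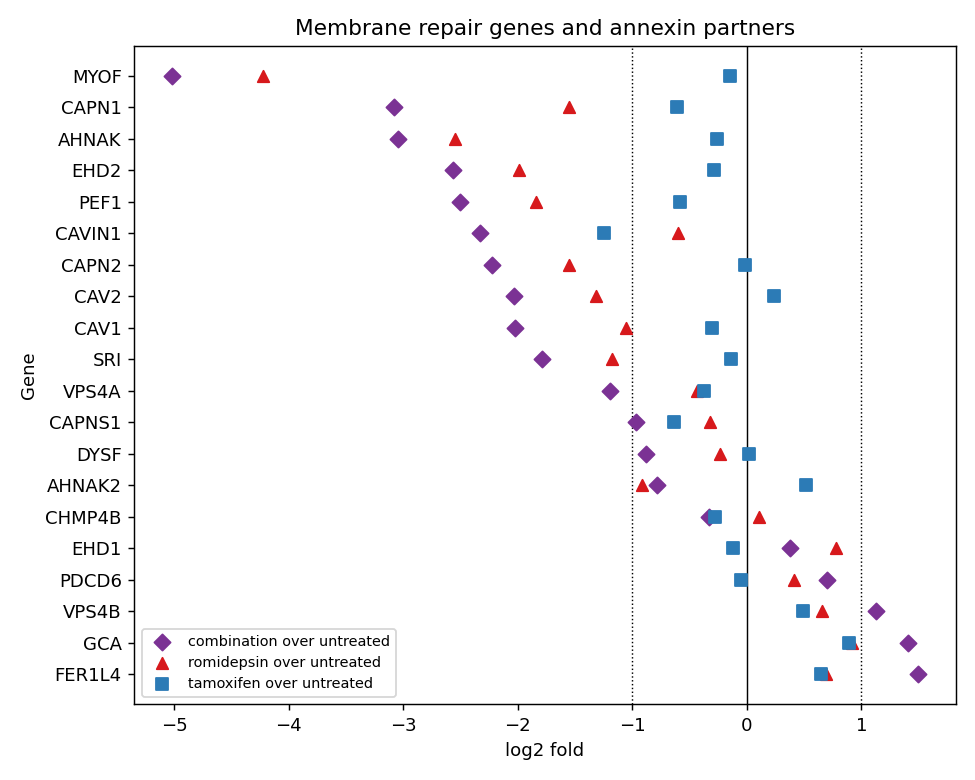
log2 folds over untreated cells of the 20 measured genes of membrane repair and annexin binding, 1 row per gene, with the combination as diamonds, romidepsin as triangles and tamoxifen as squares; dotted lines mark 2-fold. The 11 genes at the top fell in the combination, MYOF the most, and 3 at the bottom rose.

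S100A10 and annexin A2 are known to bind plasminogen and its activator at the cell surface. Of 10 listed genes of that step 5 were measured in the combination, and 3 fell and 1 rose, beside 14.4% of all genes that fell and 19.8% that rose. Urokinase (PLAU) had a signal of 139 in the combination, 296 with romidepsin and 8626 with tamoxifen, against 9337 in untreated cells. Its receptor PLAUR was 2.64-fold lower in the combination, the plasminogen-binding enolase ENO1 2.24-fold lower, and the protease inhibitor SERPINE2 9.98-fold higher.

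Of 10 listed receptors for secreted S100 proteins and annexin A1, 5 were measured in the combination, with 0 rising and 0 falling. Of all genes 19.8% rose and 14.4% fell there. ALCAM, an adhesion molecule of the immunoglobulin family, rose 2.06-fold with tamoxifen and was 1.75-fold higher in the combination. It was 1 of 5 measured with tamoxifen, where 3.7% of all genes rose. The 5 listed receptors that were not measured lay below the floor on all 4 arrays.

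Of 46 listed EF-hand proteins of other families 31 were measured in the combination, where 11 were called higher and 3 lower. These are 35.5% and 9.68%, against the 19.8% of all genes that rose and 14.4% that fell. The median was 0.67 on the log2 scale, against 0.09 over all genes. With romidepsin 8 of 31 rose (25.8%) and 2 fell (6.45%), against 14.3% and 9.27% of all genes. With tamoxifen 0 of 25 did either, against 3.7% of all genes that rose and 1.07% that fell. HPCAL4, a neuronal calcium sensor, was at least 22.8-fold higher in the combination, calretinin (CALB2) 4.83-fold higher, the centrosomal protein CETN2 4.77-fold higher and the reticulum protein RCN3 4.01-fold higher. A listed gene under the floor without treatment could enter only by a signal above it on the treated array.

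Some values of the arrays themselves moved with the conditions too. For the actin control the signal of its 3′ probe set over that of its 5′ one was 1.73 on the combination array, 1.18 with romidepsin and 1.39 with tamoxifen, against 1.21 in untreated cells. The same ratio for the GAPDH control differed little, at 1.07 on the combination array, 1.03 with romidepsin, 1.04 with tamoxifen and 1.07 in untreated cells. Hybridization spike-ins, which carry no RNA of the cells, stood at 0.819 times the untreated level on the combination array, 1.01 times with romidepsin and 0.781 times with tamoxifen. The part of the actin ratio in the results was not tested, nor was the reason for the spike-in levels. Counts and folds scaled to the spike-ins are given with the results and in the closing section. The SD of log2 folds over 18 spike-in probe sets was between 0.09 and 0.11 in the 5 comparisons, and the median absolute difference between 2 probe sets of a gene between 0.25 and 0.33, both technical only. Of 7 second probe sets of members above the floor on all arrays, 6 had the sign of the main probe set in the combination over untreated cells, and 5 each with romidepsin and with tamoxifen over untreated cells. The differences reached 0.51, 1.14 and 0.88 on the log2 scale in those 3 comparisons.

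The cell type was checked on epithelial markers, of which 5 of 6 were above the floor on at least 1 array, and KRT19 lay below it on all 4. Their summed signal was 17054 in the combination, 32349 with romidepsin and 23533 with tamoxifen, against 35589.5 in untreated cells. In the combination 3 of the 5 fell, KRT7 by 3.86-fold, KRT8 by 2.20-fold and KRT18 by 2.24-fold. The other two rose, EPCAM at least 7.15-fold and CDH1 3.93-fold. The part of these markers in the results was not tested. Of 5 myeloid markers, listed since S100A8 and S100A9 are myeloid genes, 2 passed the floor with the combination or romidepsin, ITGAM and CSF1R, with a summed signal of 662 in the combination, 517 with romidepsin and 176 with tamoxifen, against 151 in untreated cells. PTPRC, CD14 and LYZ were below the floor on all 4 arrays.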

How the data were processed

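RNA of 4 Panc1 samples, extracted with TRI reagent, was labelled as cRNA from 100 ng and read on 1 array each, per the labels' protocols. Intensity values on a linear scale were deposited, and the submitters' processing notes name MAS5 without a version. MAS5 gives 1 signal per probe set and scales each array alone, and the mean after trimming 2% at each end was 500.1 on every array. Scaling therefore assumes a similar total signal per array. Values are not log2 as deposited. Signals were taken to log2, the floor was set as a percentile of the linear signals, and log2 values below it were raised to it.

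Probe sets were named from GEO's platform annotation, in which 41097 probe sets carry 1 gene, 1801 carry several, 11721 carry none and 62 are controls. Symbols were checked by Entrez ID against RefSeq (GRCh38.p14), which matched 41043 and changed 0. RefSeq positions were used for gene order and promoters only. Columns of other samples numbered 0.

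Members, lists and comparisons were chosen with earlier results of these data known, and no pattern counts as independent support. By the naming rule members called in any of 5 comparisons are given by array, up to 6 other measured members are named, and members below the floor are named only. All 11 measured members without a call are given here instead of 6, so that every member is accounted for. Of each other list up to 4 genes with the largest combination folds are named. The pseudogene ANXA2P2 and the marker genes were named after their values were seen. Genes such as ANXA8, whose probe sets also name a second gene, were not analysed here. The 7 alternatives are in the closing section. Steps were tested on simulated data. Python 3.11.15, numpy 2.4.6, pandas 2.3.3 and matplotlib 3.10.9 were used. No replicates exist, so the number of arrays limits precision.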

Additional observations from a re-analysis of the deposited data

How the results depend on the processing

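Counts of members, medians and the folds of called members were recomputed under 7 alternatives, giving 267 single-gene folds of the 8 members called anywhere, of which 28 moved by more than the spread between probe sets. Of the 159 folds that reached 2-fold as deposited 0 turned sign, and of the 108 that did not 9 did. These were ANXA1 in the combination over untreated cells (median centring and median of probe sets), with romidepsin (median centring) and in the combination over romidepsin (quantile and spike-in scaling), S100P in the combination over untreated cells (median centring and quantile), and S100A2 and S100A4 with tamoxifen (spike-in scaling). No paired analysis was possible because each condition has 1 array. With the floor at the 25th percentile more dim genes were measured. In the combination over untreated cells 4 of 25 members rose, against 3950 of 17877 genes. With romidepsin 5 of 27 did, against 3018 of 17715. In the combination over tamoxifen 2 of 25 rose, against 3079 of 18007 genes, and with tamoxifen 2 of 26 fell, against 4.24%. With the floor at the 75th percentile, fewer genes were measured. With romidepsin 1 of 15 members fell, against 9.46% of genes, and with tamoxifen 1 of 15 rose, against 195 of 8295. In the combination over romidepsin 3 of 12 fell, against 1.52%, and 0 rose, against 266 of 8599. In the combination over tamoxifen 5 of 13 fell, against 11.6%. With arrays centred on their medians 5 of 19 members fell with romidepsin, against 12.7% of genes. With tamoxifen 1 of 19 rose, against 293 of 13284, and in the combination over romidepsin 0 of 18, against 393 of 13520. After quantile normalization 4 of 19 fell with romidepsin, against 10.3% of genes. In the combination over romidepsin 0 of 18 rose, against 516 of 13520. Scaled to the spike-in controls, the median of the members was 0.15 with tamoxifen and -0.0556 in the combination over romidepsin. In the combination over romidepsin 1 of 18 members fell under that scaling, S100A10, against 0.648% of all genes. With tamoxifen 3 of 19 rose, against 1526 of 13257 genes. In the combination 5 of 18 fell over untreated cells, against 9.69%, and 8 of 20 over tamoxifen, against 12.8%. With each gene taken as the median of its probe sets 1 of 18 members rose with tamoxifen, S100P, against 350 of 11466 genes. The cause was not tested beyond the number of genes measured. The fall of S100A10 and S100A11 in the combination over untreated cells passed 2-fold under all 7 alternatives, and that of S100A4 under the 6 that gave it a value. ANXA4 missed it under spike-in scaling (-0.94), and S100A2 and S100A3 with the higher floor of 408. Under that floor no 2-fold fall from the untreated signals of S100A2 and S100A3 could be called. The rise of ANXA1 with tamoxifen missed it with arrays centred on their medians and with the median over probe sets (lowest 0.92). Scaling also moved all genes. Their median in the combination over untreated cells was 0.09 in the deposited scale, -0.17 after median centring and 0.34 scaled to spike-ins, and the members' median lay 0.49 to 0.77 below it under all settings. Rises made up 57.9% of all genes called in that comparison in the deposited scale, 41.2% after median centring and 72.8% scaled to spike-ins. With romidepsin they made up 60.7% and 47.4% centred on medians, with tamoxifen 77.5%, 48.0%, 63.4% after quantile normalization and 98.3% scaled to spike-ins, and in the combination over romidepsin 64.2%, 46.4% and 93.7%.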
